A study of Drosophila virilis and Drosophila yakuba with 2 samples.

Results

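The genes described here are the neuropeptide precursor genes Nplp2, Nplp3, Dsk and Crz in female fly heads. They were found by gene name, after removal of the species prefix and transcript suffix, in FPKM tables of 2 species. FPKM is the number of sequenced fragments per kilobase of gene model, scaled to the fragment total of the library. Levels of different genes in 1 library are thus on a per-length scale. The estimates of fragments below take that length as the span less a fragment length. The name search found 4 models among 30568 in all. Nplp2, Nplp3 and Dsk were 3 of the 16077 models of Drosophila yakuba, and Crz was 1 of the 14491 models of Drosophila virilis. No gene of the 4 carried its name in both tables, so none could be compared between the species.

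The females were mated, wild type and 2 to 5 days old, and total RNA of their dissected heads gave 1 library for D. yakuba (stock 14021-0261.01) and 1 for D. virilis (stock 15010-1051.87). Neither species was treated, and the number of heads in a library is not given in the sources used here. With 1 library per species there is no replicate error and no test, and every value below describes that library. In whole heads, fewer cells of a type and less RNA per cell cannot be told apart.

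Neuropeptides are made as longer precursor proteins that convertases cut at basic residues inside secretory granules, and most act on G protein-coupled receptors of other cells. In D. melanogaster, Dsk encodes the drosulfakinins, relatives of vertebrate cholecystokinin made by a small number of brain neurons, insulin-producing cells among them, and linked to satiety and aggression. Crz encodes corazonin, which in the brain of that species is made by a small group of lateral neurons and is linked to stress and metabolism. Nplp2 and Nplp3 were named neuropeptide-like precursors from peptides of the D. melanogaster nervous system. The Nplp2 protein of that species has also been described as a lipoprotein-bound protein of the fat body and blood.

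Nplp2 stood near the top of all yakuba genes, Nplp3 stood among the ribosomal protein genes, and Dsk lay in the broad middle of the library, as did Crz in virilis. Nplp2 had 6117 FPKM and ranked 2 of 16077 models. Nplp3 had 958 FPKM and ranked 67. Dsk had 10.9 FPKM and ranked 5103. Crz had 4.23 FPKM and ranked 8235 of 14491 models in virilis. All 3 yakuba members and the virilis member reached 1 FPKM, a level that 65.7% of yakuba models and 71.1% of virilis models reached. At 500 FPKM or more, 2 of the 3 yakuba members remained, against 0.989% of yakuba models. The virilis member was below that level, which 1.25% of virilis models reached. These members were chosen with their levels known, so the counts describe them and no more.

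**Figure D1:**
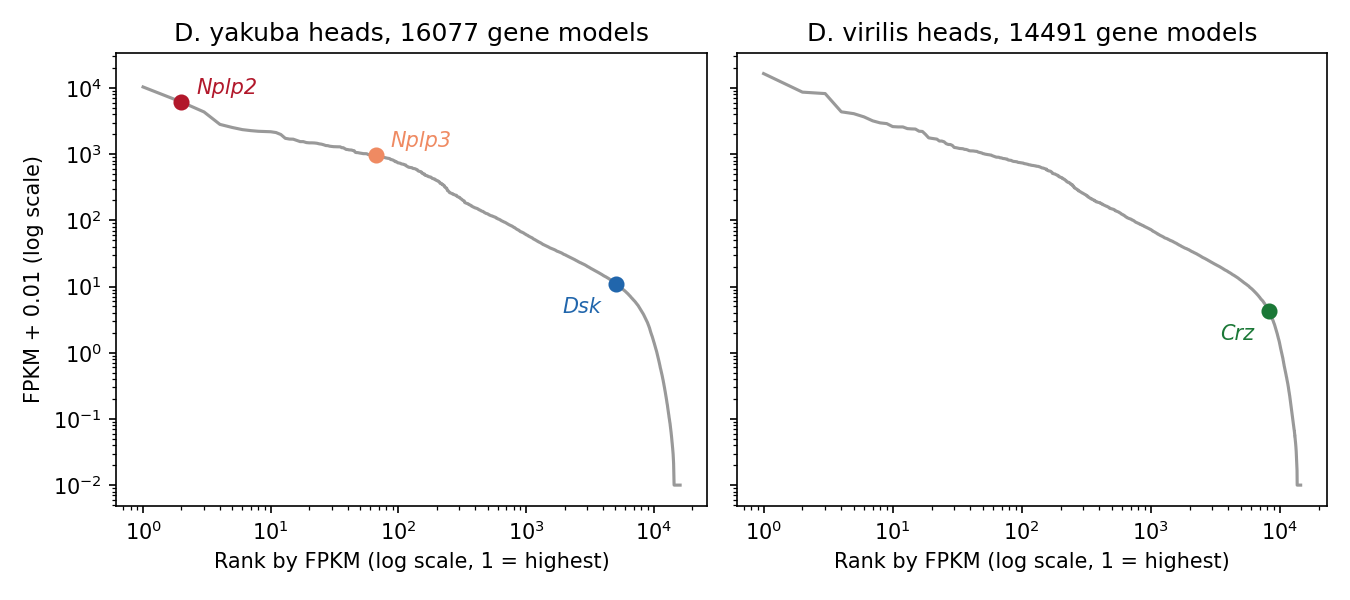
FPKM plus 0.01 (log scale) of every gene model against its rank in the library (log scale, 1 = highest), for D. yakuba heads (left) and D. virilis heads (right), with each library a grey line and the 4 named genes as coloured points. Nplp2 at rank 2 and Nplp3 at rank 67 sit on the upper part of the yakuba curve, and Dsk at rank 5103 and Crz at rank 8235 sit where the curves begin to fall steeply.

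Among the lowest FPKM values, whole fragments showed as steps, which gave an estimate of the fragments behind each value. The values appeared to be scaled to a total of 62500000 fragments in yakuba (61250000 to 64750000 among fits nearly as good) and 70750000 in virilis (70000000 to 72750000). Within 0.04 of a whole number lay 38.4% of the low values used in yakuba and 37.7% in virilis. These shares are those of the totals chosen by the search, whose median share over all settings was 4.52% in yakuba and 3.88% in virilis. Most of the low values did not lie that close to a whole number. The estimate used an effective length, about the span less the fragment length. It was 379 bp for Nplp2, 213 bp for Nplp3, 250 bp for Dsk and 374 bp for Crz. Per kilobase of whole span, levels would be lower, more so for short models than for long ones. For gene models without introns, Nplp2 would rest on about 144908 fragments, Nplp3 on 12751, Dsk on 170 and Crz on 112. An intron inside the span would lower these numbers, and whether the members hold one was not tested. The spans of Nplp2 and Dsk are multiples of 3 bp, and those of Nplp3 and Crz are not. The fragment numbers gave 95% exact Poisson intervals of 6086 to 6149 FPKM for Nplp2 and 941 to 975 FPKM for Nplp3. For Dsk and Crz they gave 9.31 to 12.6 FPKM and 3.49 to 5.09 FPKM. The intervals cover counting error only. A floor of 3 fragments corresponded to 0.192 FPKM for the Dsk model and 0.113 FPKM for the Crz model, both well under the measured level.

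The Nplp2 model (FBgn0068115) spans 543 bp on chromosome arm 3L, from 13445634 to 13446176, in the coordinates of the deposited table, whose genome build is not given in the sources used here. Its level was 1458 times the median of all yakuba models, which was 4.20 FPKM. Nplp2 held 1.45% of the summed FPKM of the library. The single model above it, at 10338 FPKM, had no gene symbol, so Nplp2 led the 496 models that carried one. The next models with a symbol were Adh, which encodes alcohol dehydrogenase, at 4341 FPKM and MtnA, which encodes a metallothionein, at 2213 FPKM. Nplp2 was 1.41 times as high as Adh. No other model fell inside its counting interval.

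The Nplp3 model (FBgn0068114) spans 377 bp, from 21313 to 21689, on a sequence that the table names as a random part of 3L and that holds 7 models in all. Nplp3 made up 0.228% of the summed FPKM. Among models with a symbol, its neighbours in level were genes of the cytoplasmic ribosome. RpLP1 had 963 FPKM, just above Nplp3, while RpL12 had 949.8 FPKM and RpS26 had 938 FPKM just below it. Of the 66 models above Nplp3, 16 were ribosomal protein genes by symbol and 36 had no symbol. The counting interval of Nplp3 held 7 other models, at ranks 62 to 69, and within that range its order is not resolved. The other models have counting errors of their own, which are not included, so the unresolved range may be wider. RpS26 lay outside the interval, and RpLP1 and RpL12 lay inside it.

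The Dsk model (FBgn0242452) spans 414 bp on chromosome arm 3R, from 379032 to 379445. Its 10.9 FPKM was 2.59 times the yakuba median and made up 0.00259% of the summed FPKM. The symbols next to it in level belonged to unrelated cellular functions. They were oxt, which encodes an enzyme of proteoglycan synthesis, at 11.1 FPKM and CSN5, a subunit gene of the COP9 signalosome, at 10.9 FPKM. Below Dsk stood Gld, which encodes glucose dehydrogenase, at 10.7 FPKM and mRpL18, a mitochondrial ribosomal protein gene, at 10.5 FPKM. All 4 lay within the counting interval of Dsk, as did 1041 other models in all. By the counting error of Dsk alone, without that of the other models, its rank could be anywhere from 4591 to 5632.

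The Crz model (FBgn0064313) spans 533 bp on scaffold_12822 of the virilis table, from 941810 to 942342. Its 4.23 FPKM was 0.676 times the virilis median of 6.26 FPKM, and it was the only one of the 4 genes below its library's median. The nearest symbols were CAHbeta, a carbonic anhydrase gene, at 4.36 FPKM, dap, a cell cycle inhibitor gene, at 4.23 FPKM, argos, an inhibitor gene of EGF receptor signalling, at 4.12 FPKM, and the eggshell gene Cp15 at 4.04 FPKM. The counting interval of Crz held these 4 among 767 other models, at ranks 7842 to 8609. The gene su(Hw), which encodes an insulator protein and had 9.15 FPKM, lay 3 models before Crz on the scaffold. Between them lay 2 models in the table and 2 protein-coding genes in RefSeq's annotation of another virilis assembly, Dvir_AGI_RSII-ME.

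Within yakuba, both Nplp genes were far above Dsk on the per-length scale. Nplp2 was 562 times as high as Dsk, with 6117 FPKM against 10.9 FPKM, and the counting interval of this ratio ran from 484 to 657. Nplp3 was 88.0 times as high as Dsk, with 958 FPKM against 10.9 FPKM and an interval from 75.6 to 103. Nplp2 was 6.39 times as high as Nplp3, with an interval from 6.27 to 6.50. On the log2(FPKM + 1) scale, the same differences were 9.01 for Nplp2 over Dsk, 6.33 for Nplp3 over Dsk and 2.67 for Nplp2 over Nplp3. All of these gaps are larger than counting error, but no replicate shows how they vary between flies.

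The members had short models, and the Nplp genes also stood high among models of like length. Spans under 600 bp made up 19.2% of yakuba models and 17.0% of virilis models. Nplp2 exceeded all 1384 other yakuba models whose span was within 1.2 times of its own, the highest of which had 2193 FPKM. Nplp3 exceeded all but 9 of 993 such models, whose median was 0.748 FPKM. Dsk had 300 higher models among 1140 of like span, whose median was 0.991 FPKM. Crz had 562 higher models among 1164, and with 4.23 FPKM it was above their median of 3.54 FPKM, which lay inside its counting interval. Crz was thus below the middle of all virilis models and near the middle of those of like span.

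**Figure D2:**
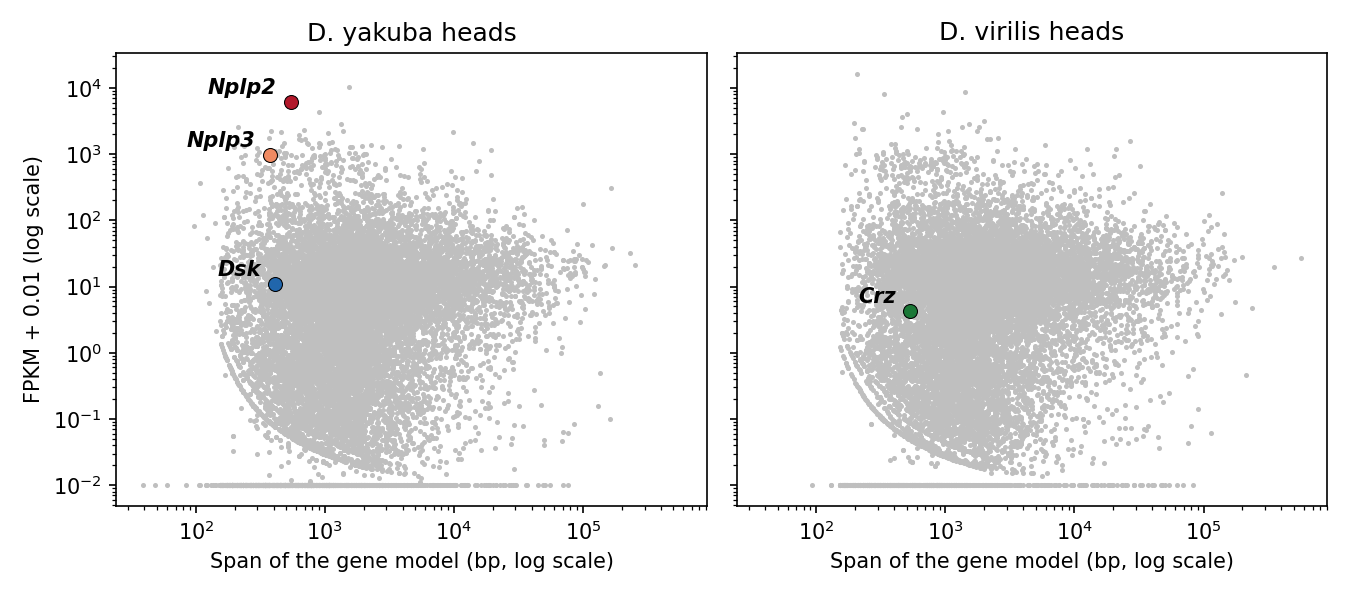
FPKM plus 0.01 (log scale) of every gene model against its span in bp (log scale) in D. yakuba heads (left) and D. virilis heads (right), with models as grey points and the 4 named genes as coloured points. Nplp2 at 543 bp stands above every model of like span, and Dsk at 414 bp and Crz at 533 bp lie inside the main cloud. The lowest curved bands of points are whole-fragment steps, and models listed at 0 form the bottom line.

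The rest of the neuropeptide list was small in both tables, in which 3.09% of yakuba models and 1.93% of virilis models carry a symbol. The list held 65 spellings of D. melanogaster neuropeptide genes. In yakuba, 4 genes of it were found: Nplp2, Nplp3, Dsk and the insulin-like peptide gene Ilp4, which had 0.397 FPKM at rank 11756. In virilis, 3 genes were found. The clock neuropeptide gene Pdf had 12.7 FPKM at rank 4921. Fmrf, the precursor gene of the FMRFamide peptides, had 2.90 FPKM at rank 8936. At 1 FPKM or more stood 3 of the 4 yakuba genes and 3 of the 3 virilis genes, against 65.7% and 71.1% of all models. At 10 FPKM or more stood 3 of 4 in yakuba and 1 of 3 in virilis, against 33.5% and 39.8% of all models. The median of the list was 484 FPKM in yakuba and 4.23 FPKM in virilis. These medians rest on 4 and 3 genes and do not describe neuropeptide genes as a class.

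Leaving the Nplp genes aside, the named neuropeptide genes of both species covered a range from 0.397 to 12.7 FPKM. Dsk was 27.4 times as high as Ilp4 in yakuba, with a counting interval from 13.6 to 64.5. That interval is wide because Ilp4, at 0.397 FPKM, rested on few fragments by the same estimate. In virilis, Crz was 0.333 times as high as Pdf, with a counting interval from 0.256 to 0.433, and 1.46 times as high as Fmrf, with an interval from 1.14 to 1.86. The order of levels in virilis was thus Pdf, Crz, Fmrf, with neighbouring levels apart by more than the estimated counting error. That error assumes models without introns and the effective lengths given above. The spans were 300 bp for Pdf, 533 bp for Crz and 1041 bp for Fmrf. Whether the gap between Crz and Fmrf holds under other lengths was not tested.

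The virilis table's lack of the symbols Dsk and Nplp3 says nothing of the genes themselves. RefSeq's annotation of Dvir_AGI_RSII-ME lists Crz, Dsk and Nplp3 by symbol, but no gene under the symbol Nplp2, and it holds 43 of the 65 neuropeptide spellings. None of the virilis identifiers could be matched to it (0 of 14491), so the virilis levels of Dsk and Nplp3 are not analysed here.

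Of the other genes of the peptide pathway, 1 of 13 spellings of precursor processing genes was found in yakuba and 0 in virilis. It was Fur2, which encodes a furin-like convertase that cuts precursor proteins, at 26.6 FPKM and rank 2292. Fur2 was thus higher than Dsk and lower than both Nplp genes. Of 41 spellings of peptide receptor genes, among them the corazonin and drosulfakinin receptors, 0 were found in either table.

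Set against the few genes found that mark neurons, Dsk and Crz were lower and the Nplp genes were higher. Of 7 spellings of such marker genes, 1 was found in yakuba and 2 in virilis. In yakuba, Dsk was 0.444 times as high as fne, a neuronal RNA-binding protein gene, with 10.9 FPKM against 24.5 FPKM. Nplp2 was 249 times as high as fne, and Nplp3 was 39.0 times as high. In virilis, Crz was 0.331 times as high as the pan-neuronal gene elav, with 4.23 FPKM against 12.8 FPKM. The peptide gene Pdf, at 12.7 FPKM, was close to elav. Crz was 0.127 times as high as the sodium channel gene para, which had 33.2 FPKM. The enzyme gene Ddc of dopamine and serotonin synthesis, which is also used in the cuticle, had 57.2 FPKM in virilis. These ratios hold for deposited gene models only, and models of fne and para may differ from those of the peptide genes in completeness. They also depend on the effective length, which raises the levels of short models more than those of long ones. The spans were 300 bp for Pdf, 1551 bp for elav and 2977 bp for fne.

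Genes of other head tissues gave further marks on the same scale. In yakuba, Nplp2 exceeded every found gene of the marker lists. This follows from its lead among models with a symbol, since markers were found by symbol only. Of 12 spellings of photoreceptor genes, 3 were found in yakuba, and ninaE was not among them. Nplp2 was 2.81 times as high as Arr1, the photoreceptor arrestin gene, which had 2177 FPKM. The photoreceptor gene Pdh had 1296 FPKM, and the muscle genes Mlc2 and Mlc1 had 1053 and 605 FPKM, so Nplp3 at 958 FPKM fell between Mlc2 and Mlc1. Nplp2 was 156 times as high as to, the only fat body marker found of 7 spellings, which had 39.2 FPKM. Of the list for blood cells, Sr-CI, a scavenger receptor gene, had 5.39 FPKM, and Fer1HCH, a ferritin gene used in many tissues that does not mark blood cells, had 405 FPKM. In virilis, ninaE, the major rhodopsin gene, had 8636 FPKM and Rh3 had 178 FPKM, the muscle genes Mlc1 and Mhc had 1685 and 1181 FPKM, and the fat body yolk protein gene Yp1 had 214.6 FPKM, all above Crz. Of the list for the germline, 5 genes were found in virilis, dec-1 among them. The highest were ovo and osk, at 3.28 and 0.467 FPKM. The single gene found in yakuba was dec-1, an eggshell gene of the somatic follicle cells that does not mark the germline, at 2.81 FPKM. No glial marker was found in either table, and no found marker was listed at 0. Which head tissue the Nplp2 fragments came from was not tested.

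**Figure D3:**
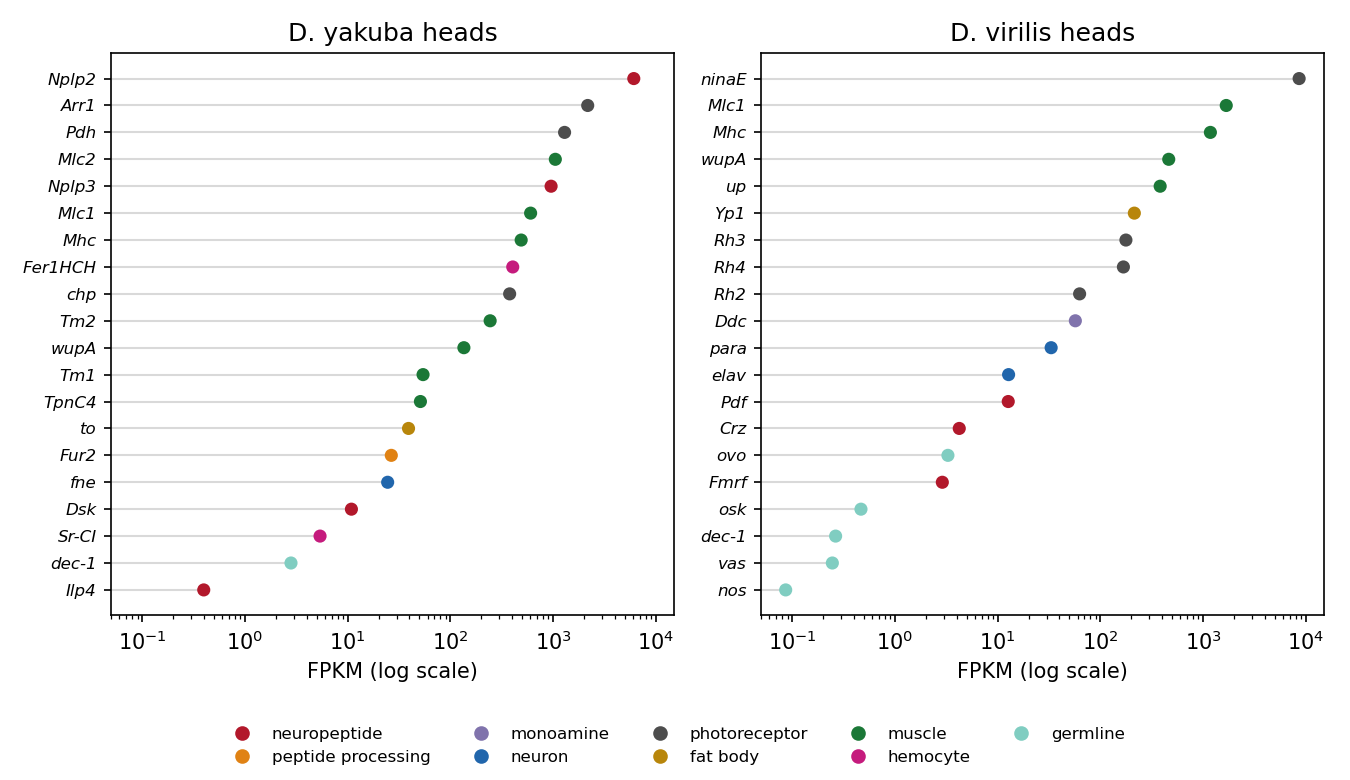
FPKM (log scale) of each gene found of the neuropeptide, peptide processing, monoamine and cell type marker lists, 1 point per gene ordered by level and coloured by list, in D. yakuba heads (left) and D. virilis heads (right). Nplp2 (6117 FPKM) leads the yakuba genes, Nplp3 (958 FPKM) lies among photoreceptor and muscle genes, and Dsk (10.9 FPKM) and Crz (4.23 FPKM) lie below the neuronal markers fne and elav.

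Along the chromosome, the Nplp genes stood far above the models beside them, whereas Dsk and Crz did not. Nplp2 was the highest of the 2942 models of 3L. The model before it, GE21961, had 0.177 FPKM and ended 1896 bp before Nplp2. The model after it, GE21964, was listed at 0 and began 22860 bp beyond it. Of the 5 models on each side of Nplp2, 2 of 10 reached 1 FPKM, against 65.2% of all models of 3L. The highest of the 10 had 27.4 FPKM.

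Nplp3 was the highest of the 7 models of its sequence and the last of them in position. The nearest, GE23178, had 0.437 FPKM at a distance of 3342 bp, and none of the 5 models nearest to Nplp3 reached 1 FPKM, with 0.970 FPKM the highest. On all 161 sequences that the table names as random parts of 3L, 52.1% of 505 models reached 1 FPKM, and 3 models were higher than Nplp3.

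Dsk ranked 1223 among the 3674 models of 3R. It lay between GE25393 with 22.6 FPKM, 2247 bp away, and GE25394 with 15.2 FPKM, 12484 bp away, both higher than Dsk. Of its 10 nearest models, 8 reached 1 FPKM and 5 were higher than Dsk, with a median of 7.63 FPKM. On 3R as a whole, 68.3% of models reached 1 FPKM. Crz ranked 221 among the 382 models of its scaffold. The models beside it were GJ14414 with 35.9 FPKM, 12880 bp away, and GJ14312 with 0.596 FPKM, 10374 bp away. Of its 10 nearest models, 7 reached 1 FPKM and 5 were higher than Crz, with a median of 5.35 FPKM. On the scaffold as a whole, 73.0% of models reached 1 FPKM. The systematic identifiers are those of the tables, which do not pair them with gene names.

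**Figure D4:**
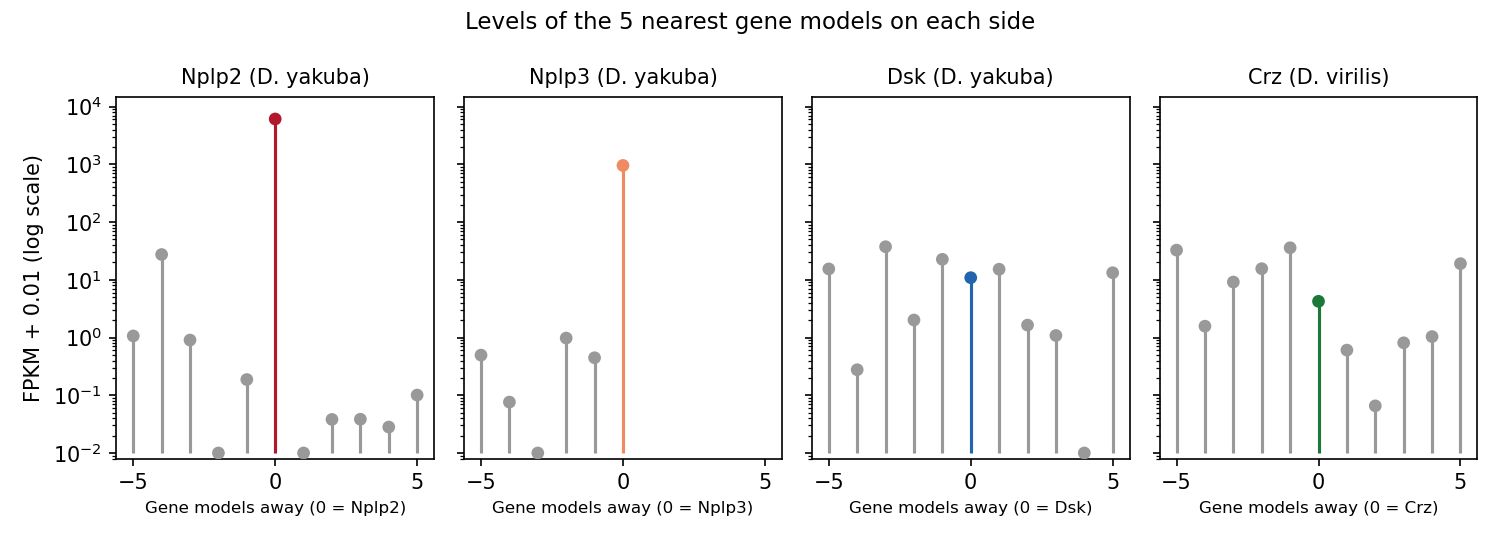
FPKM plus 0.01 (log scale) of each named gene (coloured, position 0) and of the 5 nearest gene models on each side in order along the sequence (grey), for Nplp2, Nplp3 and Dsk in D. yakuba and Crz in D. virilis. Nplp2 and Nplp3 rise far above neighbours that are mostly under 1 FPKM, Nplp3 has neighbours on 1 side only, and Dsk and Crz lie within the range of theirs.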

How the data were processed

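Each library came as a table of FPKM values, computed by the authors and deposited with an identifier, a name and a locus for every model, per the file headers. Libraries were stranded total RNA from 1 µg of RNA, per the labels' protocols. Per the submitters' processing notes, TopHat and Cufflinks were used; for versions, builds, annotation releases and strand settings, these sources state nothing. Of spans under 900 bp, 67.6% in yakuba and 66.8% in virilis were multiples of 3 bp, so many models may hold coding sequence only, which affects FPKM of short genes.

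Ranks and percentiles were computed over all models, those listed at 0 included, with Python 3.11.15 and pandas 2.3.3. Counting intervals used a total and fragment length (165 bp in yakuba, 160 bp in virilis) searched to bring values under 0.12 FPKM, of spans from 900 to 4000 bp divisible by 3, to whole fragments. Tested on simulated data with a total of 50000000, the search gave 49500000 for the 16077 yakuba models and 49750000 for the 14491 virilis models. Members and lists were chosen with earlier results of these data known. Beside the members, all genes found of the peptide lists, the 2 symbols nearest in rank on each side, the adjacent models and the 2 highest genes of each marker list were named by rule; other values were added after they were seen, and 1 gene is not reported here. No sequences are shown.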

Additional observations from a re-analysis of the deposited data

How the results depend on the processing

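The order Nplp2, Nplp3, Dsk is an order of levels and so did not depend on which models were ranked, but the percentiles did. Nplp2 was above 99.99% of all other yakuba models, and above 100% of those with a symbol and of those of like span, a choice added after the data were seen. Nplp3 was at percentile 99.59 among all models, 99.37 among models at 1 FPKM or more, 93.94 among models with a symbol and 99.09 among models of like span. Dsk was at 68.3 among all models and at 51.7, 34.3 and 73.7 in the same 3 sets, at 67.5 among spans of at least 300 bp and at 66.6 on named chromosome arms. Crz was at 43.2 among all virilis models and at 20.1, 37.8 and 51.7 in the same 3 sets, and at 42.1 among spans of at least 300 bp. Dsk was thus above the middle of all models but below the middle of models with a symbol. Yakuba models with a symbol were a high set, with a median of 23.7 FPKM against 4.01 FPKM for those without. With a pseudocount of 5 FPKM, the log2 difference was 8.59 for Nplp2 over Dsk and 5.92 for Nplp3 over Dsk. With a minimum of 10 FPKM, 1 virilis neuropeptide gene was left. No symbol had more than 1 model, so summing models changed nothing. With 1 library per species, no library could be left out and no value has a replicate error. At this depth the counting interval of Dsk held 1041 other models and that of Crz 767.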

Other observations

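A symbol was carried by 3.09% of all yakuba models and 1.93% of all virilis models, and models at Nplp levels included some with a symbol and some without. At or above the 6117 FPKM of Nplp2 stood 1 other model in yakuba, without a symbol, and 3 models in virilis, 2 of them without a symbol. At or above the 958 FPKM of Nplp3 stood 66 other models in yakuba and 58 in virilis, of which 36 and 46 had no symbol. Models of 300 bp to under 600 bp at or above that level numbered 17 in yakuba, 9 without a symbol, and 15 in virilis, 12 without a symbol, out of 2134 and 1865 models of such spans. Whether the virilis counterparts of Nplp2 or Nplp3 are among them was not tested.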
